A study of Mus musculus with 6 samples.

Results

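The 10 genes described here belong to the prostaglandin and leukotriene pathways and were chosen by symbol: the enzymes Ptgs1, Ptgs2, Hpgds, Alox5 and Ltc4s, and the receptors Ptgdr2, Ptger2, Ptger4, Ptgir and Cysltr1. All 10 were found among the 37991 gene identifiers of the count files, and 8 of them had enough counts to be tested, the exceptions being Ptgdr2 and Ltc4s. The counts come from messenger RNA of mouse group 2 innate lymphoid cells (ILC2), which respond to epithelial cytokines by secreting type 2 cytokines, sorted as lineage-negative cells with Thy1 and ST2 on their surface. There were 3 groups of 2 libraries: ILC2 straight from the thymus, ILC2 straight from the mesenteric lymph nodes (MLN), and MLN ILC2 kept for 1 week in culture with the cytokines IL-25, IL-33 and IL-7, each at 10 ng/ml. Every group, controls included, came from mice with both copies of a transgene in which the proximal lck promoter drives Id1. The line, made on FVB/N, had 10 or more generations of backcrossing onto C57BL/J. The labels describe a complete block of T-cell development and an enlarged ILC2 output in these animals, so no library stands for mice without the transgene. The age and sex of the mice are not analysed here. Whether the members of a library pair are separate animals or cultures is not stated in the labels. A p-value here rests on the spread within library pairs, pooled over the 3 groups and moderated across genes. That spread may be technical. Each sample held about 300000 cells.

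As background, prostaglandins and leukotrienes are both made from arachidonic acid, which phospholipases cut from membranes. The cyclooxygenases, encoded by Ptgs1 and Ptgs2, turn it into an intermediate from which separate synthases make prostaglandin D2 (Hpgds), E2 or I2. 5-lipoxygenase (Alox5), working with its activating protein (Alox5ap), makes leukotriene A4, which leukotriene C4 synthase (Ltc4s) joins to glutathione to give the cysteinyl leukotrienes. ILC2 are known both as targets and, to a lesser degree, as sources of these lipids: prostaglandin D2 acting on its receptor CRTH2 (Ptgdr2) and cysteinyl leukotrienes acting on Cysltr1 stimulate them, and prostaglandin E2 and I2, through the receptors that raise cyclic AMP (Ptger2, Ptger4 and Ptgir), restrain them.

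Library totals ran from 35280692 to 40578264 counts. Levels are given as CPM (counts scaled to TMM-adjusted library totals), errors of levels are standard deviations over the 2 libraries of a group (n = 2), and 3 counts in 1 library equal 0.0739 to 0.0905 CPM. The sort gene Il1rl1, which encodes ST2, was at 1444 to 2342 CPM over the 6 libraries. The other sort gene, Thy1, was at 107 to 736 CPM, lowest in culture. Of the genes of ILC2 identity, Gata3 was at 599.04 to 1064 CPM, Il7r at 835 to 2418 CPM and Rora at 129 to 809 CPM. Id1 was at 422 to 469 CPM in thymus and fresh MLN and at 1.19 to 1.48 CPM in the cultured cells, so the cultured cells differ from both other groups in Id1 as well, and its part in what follows was not tested.

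Of the 10 genes, Ptgs2 rose most with culture and Ptger4 and Ptger2 fell most, while Cysltr1, Ptgir and Alox5 were abundant in all groups and Ptgdr2, Ltc4s and Ptgs1 were at or near the floor. A gene was called at an adjusted p under 0.05 in edgeR's quasi-likelihood test, adjusted over all 16231 genes tested. Between thymus and fresh MLN, 6 of the 8 genes tested (75%) were called, against a background of 47.3% of all genes tested. Ptger4 and Ptgs2 were higher in thymus (background 25.3%), and Ptger2, Hpgds, Alox5 and Cysltr1 were lower (background 22.0%). After culture, 7 of the 8 genes tested (87.5%) differed from fresh MLN (background 77.6%). Ptgir, Ptgs2, Alox5 and Cysltr1 were higher (background 39.4%), and Ptger2, Ptger4 and Hpgds were lower (background 38.1%). The cultured cells also differed from thymus in 7 of the 8 genes tested (87.5%, background 72.7%). Ptgir, Ptgs1, Ptgs2, Alox5 and Cysltr1 were higher (background 34.8%), and Ptger2 and Ptger4 were lower (background 37.8%). Among the 8 genes tested, the libraries of the groups did not overlap for 7 between thymus and fresh MLN (background 72.8%). They did not overlap for 7 between cultured and fresh MLN (background 89.2%) and for 8 between cultured cells and thymus (background 86.0%). With backgrounds this high, the number called is no result about these genes. The median log2 fold change over the 8 genes tested was -0.45, 0.42 and 0.52 in the 3 comparisons, beside 0, -0.01 and -0.06 over all genes. The comparisons share groups, each group entering 2 of them. With 2 libraries against 2, a permutation test of a single gene cannot reach 0.05, and none was run.

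**Figure D1:**
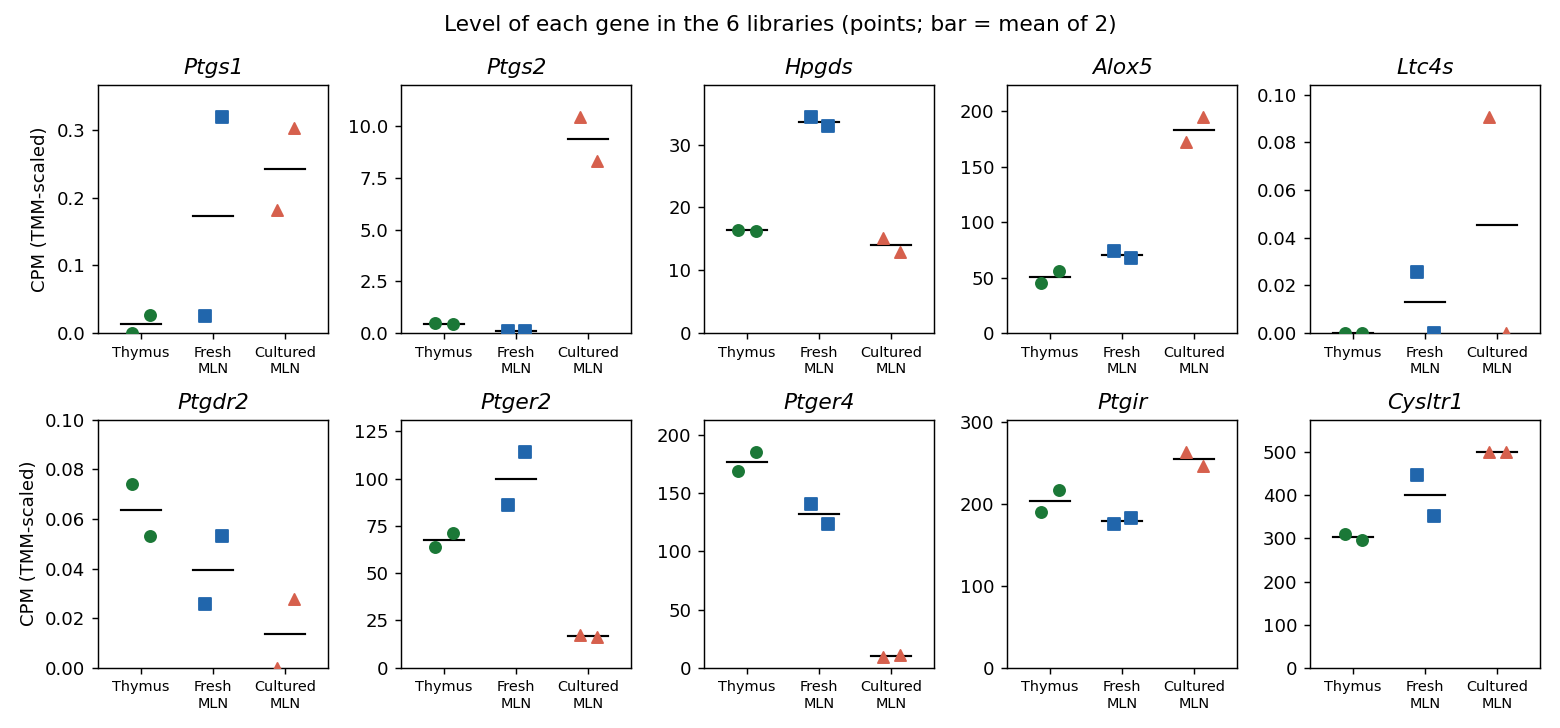
Level of each of the 10 genes in the 6 libraries (CPM, 1 panel per gene with its own linear axis from 0, 1 point per library, bars at the mean of the 2 libraries). Ptgdr2, Ptgs1 and Ltc4s stay under 0.4 CPM in every library, Ptgs2 is highest in the cultured cells, and Cysltr1 stays between 297 and 500.5 CPM throughout.

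**Figure D2:**
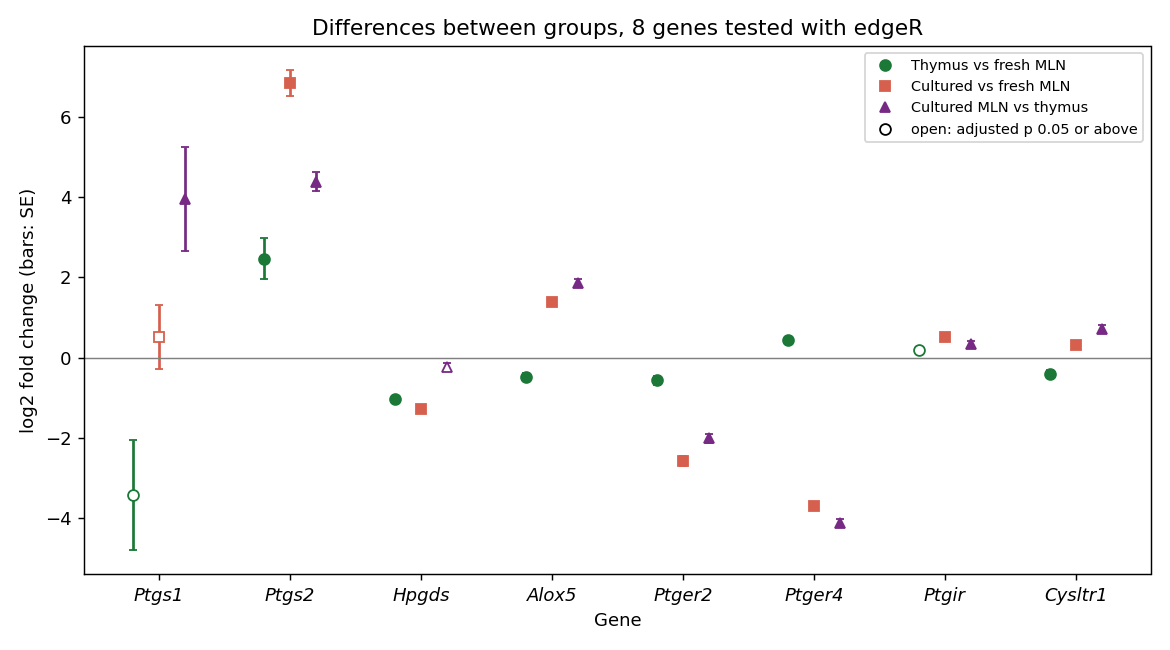
Log2 fold change of each tested gene in the 3 comparisons, with bars of 1 standard error, filled points for called genes and open points for the others. The largest values are those of Ptgs2 (6.84 in cultured against fresh MLN cells) and Ptger4 (-4.12 in cultured cells against thymus), and the errors of Ptgs1 and Ptgs2 are the widest, because they rest on few counts.

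Per kilobase of exon, which allows genes to be compared with each other, the receptors Cysltr1 and Ptgir led the 10 genes in every group. In thymus the mean level was 60.9 CPM per kilobase for Ptgir and 59.0 for Cysltr1, and the 2 genes overlapped. Ptger4 followed at 26.6, then Ptger2 at 13.0 and Alox5 at 12.3, which overlapped, and then Hpgds at 2.54. In fresh MLN, Cysltr1 stood first at 77.8 CPM per kilobase and Ptgir second at 53.7. Ptger2 (19.3) overlapped both Ptger4 (19.8) and Alox5 (17.3), and Ptger4 lay narrowly above Alox5 without overlap. The cultured cells had Alox5 at 44.7 CPM per kilobase, behind Cysltr1 at 97.3 and Ptgir at 76.3 and without overlap with the genes below it. Ptger4 ranked below Ptgs2 there, at 1.53 against 2.05 CPM per kilobase, and Ptgs2 overlapped Hpgds at 2.17. Ptgdr2, Ptgs1 and Ltc4s were under 0.1 CPM per kilobase in all groups. Exon lengths come from a later annotation than the one counted, so these levels per length are approximate.

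Of the prostanoid synthesis genes, Ptgs2 rose with culture, Hpgds was highest in fresh MLN, and Ptgs1 stayed near the floor. Ptgs2, the inducible cyclooxygenase, was at 10.4 and 8.33 CPM in the cultured libraries, at 0.468 and 0.425 CPM in thymus and at 0.0771 and 0.0797 CPM in fresh MLN. The 3 groups did not overlap, and the fresh MLN libraries held only 3 counts each. Ptgs2 rose by a log2 fold change of 6.84 ± 0.32 (SE) in cultured against fresh MLN cells (adjusted p = 3.43e-10) and by 4.38 ± 0.24 against thymus (adjusted p = 2.33e-09). Between thymus and fresh MLN it was higher in thymus by 2.46 ± 0.51 (adjusted p = 0.00155). From the counts themselves, 648 against 6, the ratio of cultured to fresh MLN was 119 with a 95% interval of 54.4 to 326, and that of thymus to fresh MLN, 35 against 6, was 5.71 with an interval of 2.38 to 16.6. These intervals are exact and cover counting error only. Per kilobase Ptgs2 still reached only 2.05 CPM in culture, beside 44.7 for Alox5.

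The promoter windows of Ptgs2, Ptger4 and Ptgir are printed because these genes are the one that rose most, the one that fell most, and the most abundant cyclic AMP-raising receptor. Each window holds the 250 bases before the RefSeq start (GRCm38.p6), written 5′ to 3′ on the gene's strand, at chr1:150099781-150100030 (plus strand) for Ptgs2, chr15:5244188-5244437 (minus strand) for Ptger4 and chr7:16906240-16906489 (plus strand) for Ptgir. Capitals mark the E-box CAGGTG or its complement, one of the sequences bound by the E proteins that Id1 holds back.
Ptgs2: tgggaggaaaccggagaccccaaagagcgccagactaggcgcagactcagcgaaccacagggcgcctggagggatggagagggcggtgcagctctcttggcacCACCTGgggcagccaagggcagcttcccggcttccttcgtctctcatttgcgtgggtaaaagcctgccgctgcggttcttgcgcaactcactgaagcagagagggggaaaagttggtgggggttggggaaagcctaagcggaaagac
Ptger4: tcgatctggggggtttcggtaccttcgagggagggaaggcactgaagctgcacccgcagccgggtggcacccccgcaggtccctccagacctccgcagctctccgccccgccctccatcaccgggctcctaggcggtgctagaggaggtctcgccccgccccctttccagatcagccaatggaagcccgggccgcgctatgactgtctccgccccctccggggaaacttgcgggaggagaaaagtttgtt
Ptgir: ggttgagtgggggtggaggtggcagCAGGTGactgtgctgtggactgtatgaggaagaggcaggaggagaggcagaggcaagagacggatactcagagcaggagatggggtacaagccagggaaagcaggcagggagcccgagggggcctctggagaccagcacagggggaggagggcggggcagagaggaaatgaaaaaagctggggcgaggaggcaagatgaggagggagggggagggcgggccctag
RefSeq held a window for 9 of the 10 genes. The motifs searched on both strands were the GATA motif AGATAA (in 9.97% of all 32536 windows of this length), the AP-1 motif TGANTCA (6.73%), the cyclic AMP response element TGACGTCA (1.56%), and the E-boxes CAGCTG (13.1%) and CAGGTG (17.3%). None of these motifs overlapped another in the windows printed. CAGGTG was found in 3 of the 9 windows, those of Ptgs2 (bases -147 to -142 from the start), Ptgir (-225 to -220) and Hpgds (-200 to -195), and the other 4 motifs in none. A match is a description of the letters, not a binding site.

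Ptgs1, the constitutive cyclooxygenase, was close to absent from the counts. Its counts were 0 and 1 in the thymus libraries, 1 and 12 in those of fresh MLN and 6 and 11 in those of cultured cells, or 0.0133 ± 0.0188, 0.172 ± 0.207 and 0.242 ± 0.0864 CPM. The fresh MLN libraries spanned nearly the whole range of the 6, and overlapped both other groups. The count ratio of cultured cells to thymus was 19.1, with a 95% interval of 3.0 to 800.0, and the gene was called higher (adjusted p = 0.015). This call was lost without cultured replicate 2 (adjusted p = 0.1), without thymus replicate 1 (adjusted p = 0.107) and with DESeq2 (adjusted p = 0.0559). Against fresh MLN the count ratio was 1.44 (0.66 to 3.23) for the cultured cells, adjusted p = 0.57, and 0.0753 (0.00177 to 0.502) for thymus, adjusted p = 0.0567. That last comparison passed the threshold without fresh MLN replicate 1 (adjusted p = 0.0119). Most of the macrophage genes listed were higher in fresh MLN replicate 2 than in replicate 1. Lyz2 was at 7.89 CPM in replicate 1 and 13.7 CPM in replicate 2, and C1qa at 1.1 and 1.81 CPM. Cybb, the most abundant of them, went the other way, at 72.3 and 66.8 CPM. The part of macrophages in the Ptgs1 counts was not tested.

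Hpgds, the hematopoietic synthase that makes prostaglandin D2, was at 34.3 and 32.9 CPM in fresh MLN, at 16.4 and 16.3 CPM in thymus and at 15.1 and 12.8 CPM in culture. Both fresh MLN libraries were above all 4 others. Hpgds was 2.06-fold lower in thymus than in fresh MLN (log2 fold change -1.04 ± 0.09, adjusted p = 1.25e-06) and 2.42-fold lower after culture (-1.27 ± 0.10, adjusted p = 4.49e-08). Cultured cells and thymus differed by -0.23 ± 0.10, which missed the threshold (adjusted p = 0.052) and passed it without cultured replicate 1 (-0.35, adjusted p = 0.0201). The order of groups thus differed between Hpgds and Ptgs2, and the fresh MLN cells, with most Hpgds, had least Ptgs2.

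**Figure D3:**
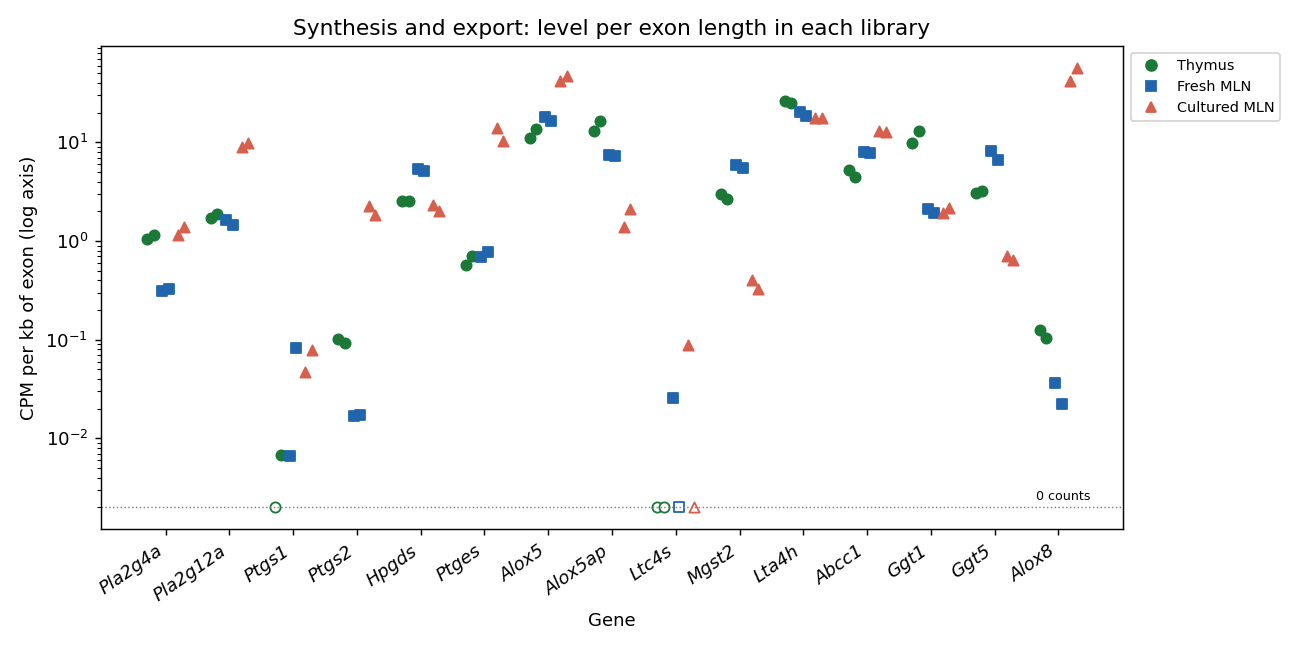
Levels of synthesis and export genes of both pathways per kilobase of exon (log axis, 1 point per library, open points on the dotted line for 0 counts) in the 3 groups. Alox5 stands above Ptgs1, Ptgs2 and Hpgds in every group, at 12.3 to 44.7 CPM per kilobase in the group means, and Ptgs2 and Hpgds overlap only in the cultured cells.

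Of the 9 other prostanoid synthesis genes listed, 7 were tested. None of the 7 was called between thymus and fresh MLN, where Ptges3, a ubiquitous chaperone also named as a prostaglandin E synthase, was the most abundant at 58.2 against 52.9 CPM (log2 fold change 0.14 ± 0.07, adjusted p = 0.141). After culture 3 rose and 2 fell against fresh MLN. Ptges, the inducible prostaglandin E synthase that acts downstream of Ptgs2, was at 54.7 and 40.3 CPM in the cultured libraries and between 2.27 and 3.05 CPM in the other 4, a rise of 4.04 ± 0.16 against fresh MLN (adjusted p = 7.58e-11). Ptges and Ptgs2 were therefore both highest in the cultured cells, with no overlap with either fresh group. Cbr1, a carbonyl reductase that can act on prostaglandins, rose by 0.62 ± 0.14, and Akr1b3, an aldose reductase, fell by 0.47 on the log2 scale (SE 0.09). The same 3 genes differed in the same directions from thymus, where 3 of the 7 were higher and 3 lower. Ptgds and Ptgis, the other prostaglandin D synthase and the prostacyclin synthase, had too few counts to be tested.

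Among the genes that release arachidonic acid, 6 of 7 were tested. Pla2g4a, the cytosolic phospholipase that supplies both pathways, was at 7.05 ± 0.415 CPM in thymus, 8.08 ± 0.972 CPM in culture and 2.04 ± 0.0474 CPM in fresh MLN. It was higher than in fresh MLN both in thymus (1.79 ± 0.17, adjusted p = 2.14e-06) and in culture (1.99 ± 0.17, adjusted p = 1.64e-07). Pla2g12a, a secreted phospholipase, rose to 34.4 from 5.65 CPM with culture (2.61 ± 0.11), and Pla2g6, a calcium-independent one, fell by 0.39 on the log2 scale (SE 0.08). Of the 4 tested genes of prostanoid transport and breakdown, 2 were higher in thymus than in fresh MLN. Ptgr1, a reductase that inactivates prostaglandins and leukotriene B4, was at 12.6 CPM in thymus and 11.7 CPM in culture against 1.18 CPM in fresh MLN (3.42 ± 0.19 and 3.31 ± 0.20). Abcc4, a transporter that exports prostaglandins, rose by 0.92 ± 0.09 with culture and was higher in thymus by 0.41 ± 0.09.

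The receptors that raise cyclic AMP diverged: Ptger2 and Ptger4, both receptors of prostaglandin E2, fell steeply with culture while Ptgir, the prostacyclin receptor, rose slightly. Ptger4 was at 141 and 123 CPM in fresh MLN, 169 and 185 CPM in thymus and 9.56 and 10.8 CPM in culture. No groups overlapped, and the cultured libraries were far below the other 4. Ptger4 was 12.9-fold lower in cultured than in fresh MLN cells (log2 fold change -3.69 ± 0.10, adjusted p = 1.11e-12) and 17.4-fold lower than in thymus (-4.12 ± 0.10, adjusted p = 6.23e-13). In thymus it was 1.34-fold higher than in fresh MLN (0.42 ± 0.08, adjusted p = 0.000778).

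Ptger2 was at 85.9 and 114 CPM in fresh MLN, 64.1 and 71.1 CPM in thymus and 17.1 and 16.3 CPM in culture. The fresh MLN libraries were highest and the cultured ones lowest, without overlap. Culture lowered Ptger2 5.98-fold against fresh MLN (-2.58 ± 0.12, adjusted p = 3.39e-10), and the level was 4.04-fold below that of thymus (-2.01 ± 0.12, adjusted p = 5.50e-09). Unlike Ptger4, it was lower in thymus than in fresh MLN, by 1.48-fold (-0.57 ± 0.11, adjusted p = 0.000916). An opposite-strand gene, Gm17173, which shares 4.7% of the exon bases of Ptger2, was at 23.7 CPM in fresh MLN and 0.856 CPM in culture, and counts of the 2 cannot be fully told apart without the strand setting. Ptger4 shares 15.3% with Gm15937, which was at 0.118 CPM or less, and 1.2% with Ttc33, which was at 23.6 CPM in culture and 30.2 CPM in fresh MLN, above the 10.2 CPM of Ptger4 in culture.

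Ptgir was at 176 and 182 CPM in fresh MLN, 189 and 217 CPM in thymus and 263 and 246 CPM in culture. The groups did not overlap, but the steps between them were small. Ptgir was 1.42-fold higher in cultured than in fresh MLN cells (0.51 ± 0.08, adjusted p = 4.13e-05). Against thymus the cultured cells were higher by 0.33 ± 0.08 (adjusted p = 0.00179), a call lost when libraries were scaled by their totals alone (0.07, adjusted p = 0.423). That scaling moved the median of all genes in this comparison to -0.32, from -0.06. Thymus and fresh MLN differed by 0.18 ± 0.08, which was not called (adjusted p = 0.0667). It was called without thymus replicate 1 (0.28, adjusted p = 0.00939), with library totals alone (adjusted p = 0.0313) and with no filter (adjusted p = 0.0317).

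The make-up of this receptor trio, as shares of its summed level per kilobase, therefore changed with culture. Ptgir made up 58.3% and 57.5% of the sum in the fresh MLN libraries, 60.1% and 61.0% in thymus, and 94.3% and 93.9% in culture. Ptger4 made up 23.4% and 19.5% in fresh MLN, 26.9% and 26.1% in thymus, and 1.72% and 2.06% in culture. Ptger2 was at 18.3% and 23.1% in fresh MLN, 13.1% and 12.9% in thymus, and 3.95% and 3.99% in culture. The sum itself lay between 78.5 and 106.5 CPM per kilobase in all 6 libraries. Shares of a sum are bound to each other, so the share of Ptgir must rise where the other shares fall, and the shares carry no test of their own. The level of Ptgir itself was also higher in culture than in fresh MLN, at 76.3 against 53.7 CPM per kilobase.

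**Figure D4:**
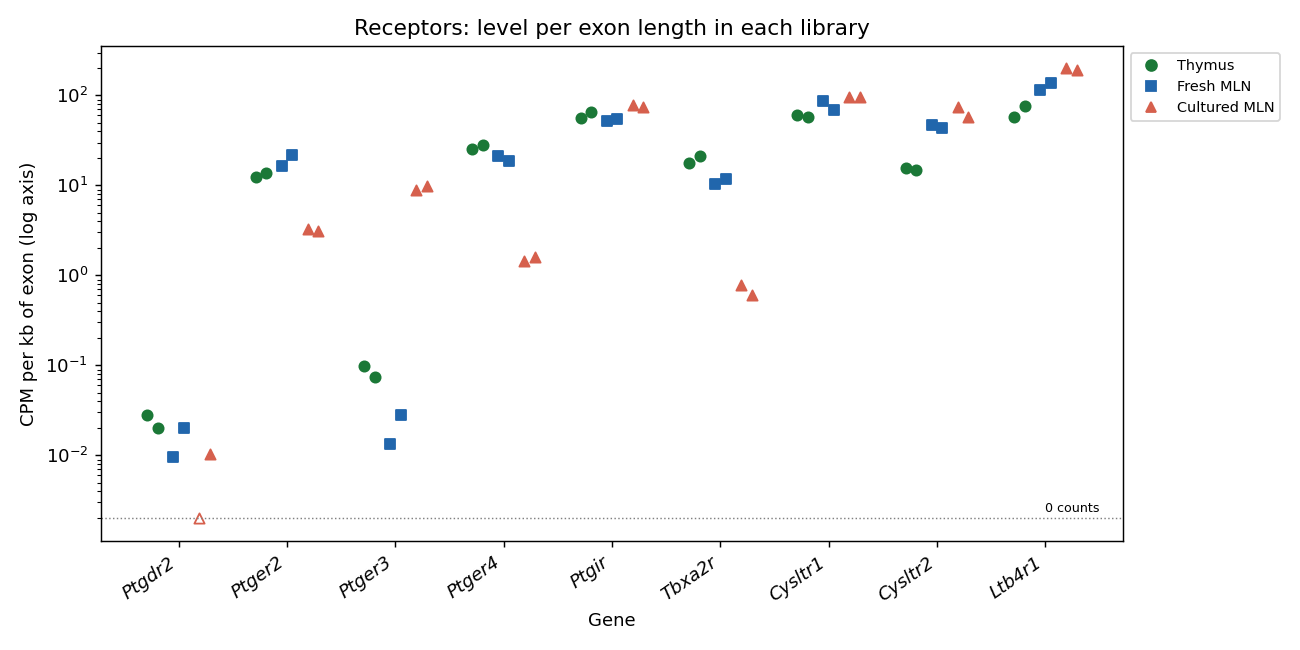
Levels of 9 receptor genes of both pathways per kilobase of exon (log axis, 1 point per library, the open point on the dotted line for 0 counts) in the 3 groups. Ptger2 and Ptger4 drop with culture, to 3.22 and 1.53 CPM per kilobase in the group means, while Ptgir and Cysltr1 stay at 53.7 or more in all groups.

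Of the 5 other prostanoid receptors, 3 could be tested: 1 rose and 2 fell with culture against fresh MLN. Ptger3, a prostaglandin E2 receptor that couples to inhibitory G proteins, was at 50.9 and 55.9 CPM in the cultured libraries, at 0.567 and 0.425 CPM in thymus and at 0.0771 and 0.159 CPM in fresh MLN. Only the cultured libraries were above 1 CPM. The counts, 3713 in culture and 9 in fresh MLN, gave a ratio of 455 with a 95% interval of 239 to 996 (adjusted p = 2.73e-13). Tbxa2r, the thromboxane receptor, was at 1.33 ± 0.248 CPM in culture, 21.3 ± 2.10 CPM in fresh MLN and 37.1 ± 4.52 CPM in thymus, so it fell by 4.0 on the log2 scale (SE 0.16) with culture and was higher in thymus than in fresh MLN by 0.80 ± 0.11. Ptgdr, the other prostaglandin D2 receptor, and Ptgfr had too few counts to be tested.

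Ptgdr2, the CRTH2 receptor by which prostaglandin D2 attracts ILC2, was not detected above the floor in any library. The cultured libraries held 0 and 1 counts, the fresh MLN ones 1 and 2 and the thymus ones 3 and 2, so no library exceeded 0.0739 CPM. These are differences of 1 to 3 counts, no fold is given, and the gene did not pass the filter. With no filter, its adjusted p was 0.845 for thymus against fresh MLN, 0.638 for culture against fresh MLN and 0.455 for culture against thymus. In the annotation used for names, 39.0% of its exon bases lie opposite exons of Ccdc86, which was at 12.6 to 13.8 CPM in the group means. Reads in that shared stretch, 1031 of 2644 exon bases, can be lost to both genes, depending on the strand setting. For that part a low count is not the same as a low level of RNA. The rest of its exon bases lie opposite no exon of Ccdc86 in that annotation, and no library had more than 3 counts there either. The part of the overlap in the low counts was not tested.

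Leukotriene synthesis was marked by a high level of Alox5 that rose further with culture, next to an almost empty Ltc4s. Alox5 was at 74.2 and 67.5 CPM in fresh MLN, 45.1 and 55.7 CPM in thymus and 172 and 195 CPM in culture. The 3 groups did not overlap. Culture raised Alox5 2.59-fold against fresh MLN (1.37 ± 0.10, adjusted p = 2.30e-08) and the level was 3.64-fold that of thymus (1.86 ± 0.10, adjusted p = 1.60e-09). Thymus was 1.41-fold below fresh MLN (-0.49 ± 0.10, adjusted p = 0.00119). Ltc4s had 3 counts in 1 cultured library, 1 in 1 fresh MLN library and 0 in the other 4, or at most 0.0905 CPM, and the filter removed it. Without the filter its adjusted p was 0.659, 0.59 and 0.299 in the 3 comparisons.

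The other genes of leukotriene synthesis and export moved in both directions. Of 10 listed, 9 were tested: 5 were higher and 3 lower in thymus than in fresh MLN, 4 rose and 3 fell with culture against fresh MLN, and 3 were higher and 5 lower in culture than in thymus. Abcc1, a transporter that exports leukotriene C4, had the same order of groups as Alox5, at 73.2 ± 9.31 CPM in thymus, 119 ± 2.55 CPM in fresh MLN and 193 ± 3.31 CPM in culture, with log2 fold changes of -0.70 ± 0.08 for thymus and 0.70 ± 0.08 for culture against fresh MLN. Alox5ap, the membrane partner that 5-lipoxygenase needs, was at 18.5 and 23.3 CPM in thymus, 10.5 and 10.3 CPM in fresh MLN and 1.96 and 2.98 CPM in culture. Its order of groups was the reverse of that of Alox5 at every step, with thymus highest and the cultured cells lowest. Alox5ap fell by 2.06 on the log2 scale (SE 0.18) with culture (adjusted p = 2.57e-07) and was higher in thymus than in fresh MLN by 1.01 ± 0.15 (adjusted p = 0.000114). Mgst2, a microsomal glutathione transferase that can also make leukotriene C4, was at 21.7 and 20.4 CPM in fresh MLN, 11.0 and 9.87 CPM in thymus and 1.48 and 1.21 CPM in culture, and fell by 3.97 on the log2 scale (SE 0.15) with culture (adjusted p = 4.32e-11).

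Ggt1 and Ggt5, which trim leukotriene C4 to leukotriene D4 outside the cell, split between the tissues. Ggt1 was at 39.3 ± 7.58 CPM in thymus and 6.81 ± 0.433 CPM in fresh MLN (2.53 ± 0.14, adjusted p = 7.75e-09), and Ggt5 was lower in thymus, at 18.6 ± 0.835 against 43.5 ± 6.53 CPM (-1.23 ± 0.11, adjusted p = 8.18e-07). Ggt5 fell to 3.97 ± 0.233 CPM with culture (-3.45 ± 0.13). Of the other lipoxygenases only Alox8, which oxidises arachidonic acid at another carbon, could be tested. Alox8 was at 150.4 and 202 CPM in culture and at 0.444 CPM or less in the other 4 libraries, and its counts of 12321 against 8 in fresh MLN gave a ratio of 1700 (95% interval 862 to 3940, adjusted p = 2.43e-13). Per kilobase, Alox5 at 44.7 and Alox8 at 49.5 CPM were close in the cultured cells, while in thymus and fresh MLN Alox8 was at 0.115 and 0.0292.

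Cysltr1, the high-affinity receptor of the cysteinyl leukotrienes, was abundant in every library and was highest in the cultured cells. It was at 448 and 352 CPM in fresh MLN, 309 and 297 CPM in thymus and 500.5 and 499.6 CPM in culture. The 2 fresh MLN libraries differed from each other by more than fresh replicate 2 differed from thymus, yet no groups overlapped. Cysltr1 was higher in culture than in thymus by 0.72 ± 0.10 (1.65-fold, adjusted p = 1.61e-05). Against fresh MLN the rise with culture was 0.32 ± 0.10 (1.25-fold, adjusted p = 0.00749) and was lost without fresh replicate 2 (0.15, adjusted p = 0.124) and with library totals alone (0.10, adjusted p = 0.356). The lower level in thymus than in fresh MLN, -0.40 ± 0.10 (adjusted p = 0.00409), was lost without fresh replicate 1 (-0.21, adjusted p = 0.0581).

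Its relative Cysltr2 varied more. Cysltr2 was at 133 and 126 CPM in fresh MLN, 44.5 and 42.7 CPM in thymus and 216 and 167 CPM in culture, lower in thymus by 1.57 on the log2 scale (SE 0.10, adjusted p = 5.12e-08) and higher in culture than in fresh MLN by 0.56 ± 0.10 (adjusted p = 0.000142). As a share of the summed level per kilobase of both receptors, Cysltr1 stood at 79.5% and 79.6% in thymus, at 65.2% and 60.9% in fresh MLN and at 56.4% and 62.5% after culture, with thymus above the other 4 libraries. Ltb4r1, the receptor of leukotriene B4, which draws leukocytes, had the same order of groups: 93.3 ± 17.3 CPM in thymus, 176 ± 24.9 CPM in fresh MLN and 274 ± 6.07 CPM in culture. It was lower in thymus than in fresh MLN (-0.92 ± 0.11, adjusted p = 2.80e-05) and higher after culture (0.64 ± 0.11, adjusted p = 0.000174). All 3 tested receptors among the 6 of this role other than Cysltr1 were called lower in thymus than in fresh MLN, beside 22.0% of all genes tested.

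Over the whole wider list, 48 eicosanoid genes beside the 10 were found and 33 tested. Between thymus and fresh MLN 12 were higher and 8 lower, or 60.6% called beside 47.3% of all genes, with a median log2 fold change of 0.05 beside 0 for all genes. With culture 16 rose and 13 fell against fresh MLN (87.9% called beside 77.6%, median 0.03 beside -0.01), and against thymus 13 were higher and 13 lower (78.8% called beside 72.7%, median -0.04 beside -0.06). Each comparison thus had called genes of both directions in the list. The 15 genes below the filter included Ptgdr, Oxgr1 and Hpgd, the enzyme that begins prostaglandin breakdown.

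Of 31 genes listed for the signalling of these receptors, 30 were found, and all 30 passed the filter. The list was chosen with earlier results of these data known and is not complete, so that number is no result about signalling genes. Between thymus and fresh MLN 13 were higher and 9 lower, with culture 15 rose and 13 fell against fresh MLN, and 11 were higher and 14 lower in culture than in thymus. The shares called were 73.3%, 93.3% and 83.3%, beside 47.3%, 77.6% and 72.7% of all genes. Medians were 0.05, 0.10 and -0.17 in log2 fold change. Gnai2, the inhibitory G protein subunit, was at 941 ± 11.1 CPM in culture, 324 ± 2.98 CPM in fresh MLN and 537 ± 29.2 CPM in thymus, a rise of 1.54 ± 0.07 with culture. Gnaq, the subunit that couples receptors to calcium release, fell by 1.62 on the log2 scale (SE 0.06), from 176 to 57.4 CPM. Gnas, the stimulatory subunit, rose by 0.83 ± 0.06, from 120 to 214 CPM.

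Adcy6, an adenylate cyclase, was at 6.51 ± 1.05 CPM in culture against 71.0 ± 7.02 CPM in fresh MLN and 145 ± 7.33 CPM in thymus. It fell by 3.44 on the log2 scale (SE 0.11) with culture, the largest change among the tested cyclases and protein kinase A genes. Prkar2b, a regulatory subunit of protein kinase A, rose by 1.53 ± 0.15, from 5.58 to 16.2 CPM, and Adcy9, another cyclase, fell by 1.45 (SE 0.19). Adcy7, the most abundant cyclase tested, fell less, from 447 to 368 CPM (-0.28 ± 0.07). Of the 8 tested genes of this role 2 rose and 5 fell with culture. Of the 7 tested phosphodiesterases, which break cyclic AMP or its relatives down, 5 rose and 2 fell with culture against fresh MLN. Pde7a fell from 726 ± 17.6 to 44.9 ± 9.34 CPM (-4.02 ± 0.12), and Pde8a (1.81 ± 0.08) and Pde4a (1.41 ± 0.08) rose. In thymus Pde4d was higher than in fresh MLN by 0.79 ± 0.12, and Pde8a and Pde7a were lower by 0.94 and 0.68 on the log2 scale.

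The genes listed as cyclic AMP response factors did not move as one. Some of them, such as Creb1, carry the signal, so the numbers that rose and fell are no measure of the response to it. Crem, a transcription factor gene induced by cyclic AMP, was at 196 and 174 CPM in culture, 97.5 and 106 CPM in thymus and 19.3 and 23.2 CPM in fresh MLN, 8.70-fold higher in culture and 4.77-fold higher in thymus than in fresh MLN (3.12 ± 0.10 and 2.26 ± 0.10). Nr4a3, another early response gene, was at 0.501 ± 0.111 CPM in culture, 5.70 ± 0.403 CPM in fresh MLN and 11.97 ± 1.66 CPM in thymus, and fell by 3.49 on the log2 scale (SE 0.23) with culture. Creb1 fell by 1.93 (SE 0.07). With culture, 3 of the 8 tested genes of this role rose and 4 fell.

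Markers of other cells that make or answer these lipids were not level across the groups. The summed CPM of 10 mast cell and basophil markers was 340.9 to 384.4 in fresh MLN, 819.6 to 835.5 in thymus and 937.7 to 1176 in culture. Kit made up most of it in thymus and fresh MLN, and Mcpt8, at 588 and 866 CPM, most of it in culture, where Mcpt8 and Alox5 were both highest. Of the 5 tested, 3 were higher in culture than in fresh MLN (Mcpt8, Hdc and Cma1) and 2 lower (Cpa3 and Kit). Hdc changed by 6.96 in log2 fold change. Cpa3, at 119 CPM in thymus and 26.1 CPM in fresh MLN, went the other way, by -7.97 with culture. The defining mast cell and basophil markers Fcer1a and Ms4a2 were at 0 to 0.128 CPM in every library, and Mcpt4, Tpsb2 and Tpsab1 were at 0 in thymus and fresh MLN. For 12 macrophage and monocyte markers the sums were 88.73 to 95.71 in fresh MLN, mostly Cybb. They were 6.999 to 12.02 in thymus and 20.9 to 21.72 in culture, so highest where Hpgds was highest. Of the 10 tested, 7 were lower in culture than in fresh MLN. The 2 that were higher were Cd68, at 16.4 against 3.98 CPM, and Adgre1, at 3.57 against 0.262 CPM. The 10 neutrophil and eosinophil markers summed to 4.535 to 5.842 in thymus and fresh MLN and 15.84 to 20.73 in culture. Most of the sum in culture was Ly6g, which was at 0 in thymus and fresh MLN, and Ccr3. Of the 6 tested markers, 3 were higher in culture than in fresh MLN (Ly6g, Ccr3 and Mpo) and 3 lower (S100a8, S100a9 and Camp). The 5 platelet and megakaryocyte markers summed to 9.193 to 9.228 in thymus, 9.765 to 9.799 in fresh MLN and 3.86 to 3.922 in culture. For 7 T cell markers, mostly Cd3e, the sums were 85.45 to 85.74, 98.11 to 110.0 and 47.97 to 53.32 in the same order of groups. All 7 were tested, and 2 were higher in thymus than in fresh MLN and 2 lower (Cd3e and Foxp3). The higher ones were Cd4, at 5.81 against 0.966 CPM, and Cd3d, at 1.88 against 0.995 CPM. For 8 dendritic cell markers the sums were 11.34 to 13.93, 17.01 to 18.09 and 38.05 to 43.09 in that order of groups, with Clec9a, Cd209a and Batf3 at 0 in culture. Xcr1 alone gave 38.8 and 33.4 CPM in culture, and 4 of the 5 tested markers were lower there than in fresh MLN. For 6 markers of stroma and endothelium, nearly all Pecam1, the sums were 131.3 to 139.8, 99.85 to 110.0 and 154.1 to 156.9, with Pdpn at 0 in thymus and fresh MLN. The part of these cells in the levels above was not tested, and in bulk samples fewer cells of a type and less RNA per cell cannot be told apart.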

How the data were processed

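Messenger RNA was sequenced from 6 libraries in 3 groups of 2, assigned from the sample labels. The authors deposited raw counts of reads per Ensembl gene for each library. HTSeq 0.5.3p9 and the builds mm9 and NCBIM37 are named per the submitters' processing notes, and a stranded mRNA kit per the labels' protocols. Not given in the sources used here are the aligner, annotation release and strand setting, which leaves counts of opposite-strand gene pairs uncertain. Symbols, exon lengths and exon overlaps between genes came from GENCODE M21 by Ensembl identifier (32919 of 37991 had a symbol); it is a later build than the one counted, and none of its coordinates are printed.

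The default filterByExpr rule kept 16231 of 23871 genes with a count. In R 4.3.3, edgeR 4.0.16 fitted all libraries with TMM scaling and 1 mean per group, and the two-sided quasi-likelihood F test was adjusted by Benjamini-Hochberg over all genes tested in each comparison. The SE of a log2 fold change is its size divided by the square root of F, and can be too small where the lower group has few counts. A gene passes at an adjusted p under 0.05. The design left 3 residual degrees of freedom, with a prior of 9.54. The code was tested on simulated data. Values of Ptger1 and of the B cell markers are not reported here.

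The 10 genes and the lists were chosen with earlier results of these data known. Of the lists, up to 3 called genes per role and comparison are named, those that changed most among genes reaching 5 CPM in either group. Where none passed, the most abundant tested gene is named. Abcc1, Gnas, Adcy7 and single markers of other cells, such as Lyz2, C1qa, Cybb and Xcr1, were picked after their values were seen. Where a group had 1 to 3 counts or few more, a count ratio and its exact 95% interval are given. Such intervals cover counting error only: the reads carried no molecular identifiers. Alternatives were RLE, upper-quartile and no scaling factors, no filter, at least 5 CPM in 2 libraries, a replicate block, a test against a 2-fold change, a fit to the 2 groups compared, DESeq2 1.42.0 and leaving out each library.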

Additional observations from a re-analysis of the deposited data

How the results depend on the processing

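Across the 15 alternatives no log2 fold change of the 10 genes changed sign among the tested genes called by the main settings, and the numbers called stayed within 1.5 times under all of them except the test against a 2-fold change, which asks for more than a difference. Under that test 1298 genes were called between thymus and fresh MLN (897 higher, 401 lower), with 1 of the 10 genes (Ptgs2), 6 of the wider eicosanoid list and 3 of the G protein and cyclic AMP list. For culture against fresh MLN the numbers were 5676, 5 of the 10, 16 and 12, and for culture against thymus 4455, 4 of the 10, 16 and 9. With library totals alone, 4254 genes were higher and 7880 lower in culture than in thymus (35.1% higher), against 5654 and 6139 (47.9%) with TMM, and the median of all genes moved to -0.23 for culture against fresh MLN and -0.32 against thymus. Hpgds then passed between culture and thymus (-0.49, adjusted p = 0.000579), as it did with upper-quartile scaling (0.0489) and with no filter (0.0499), and Ptgir passed between thymus and fresh MLN (0.0313; no filter 0.0317). Ptgs1 passed between thymus and fresh MLN with no filter (0.0376) and missed between culture and thymus in the 2-fold test (0.0564). The labels give no pairing of libraries with the same replicate number, and with 2 numbers none could be established: the replicate differences correlated across genes at 0.238 between thymus and fresh MLN, 0.027 between cultured and fresh MLN and 0.083 between culture and thymus. With the replicate number as a block, 8049, 12738 and 11944 genes were called in the 3 comparisons and 7, 7 and 8 of the 10 genes, the added ones being Ptgs1 between thymus and fresh MLN (-3.36, adjusted p = 0.0351) and Hpgds between culture and thymus (-0.23, adjusted p = 0.0367). The cause of these changes was not tested. Depth limits Ptgdr2, Ltc4s and Ptgs1, and Ptgs2 in fresh MLN.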

Other observations

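Genes with a symbol and at least 10 CPM in their highest group were ranked by how closely their pattern over the 6 libraries matched that of Hpgds and Ptger2, as the Euclidean distance between log2(CPM + 0.1) values centred on each gene's mean. Of 10070 candidates, the nearest to Hpgds were Gimap8 (distance 0.178), Zfp316 (0.179) and Zrsr1 (0.225). Gimap8, a GTPase gene of the immunity-associated family, was at 662 CPM in fresh MLN, 339 CPM in thymus and 302.5 CPM in culture, the same order as Hpgds at a much higher level. The nearest to Ptger2 were N4bp2l1 (0.221), Mvb12b (0.235) and Abhd15 (0.255). Mvb12b, which encodes a subunit of the ESCRT-I sorting complex, was at 279 CPM in fresh MLN, 177 CPM in thymus and 41.6 CPM in culture. These distances describe 6 libraries of 3 groups and carry no test. For Ptgdr2, with 0 to 3 counts per library, the ranking could not be read.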
